A study of Mus musculus with 4 samples.

Results

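Microglia are macrophages that live in the brain, and their purinergic receptors and ectonucleotidases were described here from 10 genes of the mouse looked up by symbol among the 56832 gene rows of each count file. They are the nucleotide receptor genes P2ry12, P2ry13, P2ry6, P2rx4 and P2rx7, the adenosine receptor genes Adora1, Adora2a and Adora3, and the ectonucleotidase genes Entpd1 and Nt5e. Of these 10 genes, 7 were detected at 100 CPM (counts scaled to a total of 1000000 assigned to genes) or more in every library, and Adora1, Adora2a and Nt5e were not detected at 1 CPM in every library. Among all gene rows, 2.01% reached 100 CPM in every library.

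The cells came from the brains of female C57BL/6 mice with no intervention, not transplanted themselves and littermates of animals that received a blood stem cell or bone marrow graft followed by inhibition of CSF1R, a growth factor receptor on which microglia depend. They were sorted as CD11b-positive cells of low to intermediate CD45, a gate that uses none of the 10 gene products. The 4 libraries are replicates 1 to 4 of 1 group, and the graft-derived groups were not analysed here, so no comparison between groups was made. The labels used here give no age and do not tell whether libraries stand for separate animals, so spreads and p-values measure differences between these samples, which may be technical.

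Cells release ATP when they are active or damaged, and enzymes on cell surfaces trim it step by step to ADP, AMP and adenosine. Microglia read ATP, ADP and adenosine with different receptors. P2Y receptors are G protein-coupled receptors for nucleotides, P2X receptors are cation channels opened by ATP, and adenosine has G protein-coupled receptors of its own. In the healthy brain this system is best known for the fast extension of microglial processes toward a site of ATP release, which depends on the ADP receptor P2Y12. The enzyme CD39, encoded by Entpd1, converts ATP and ADP to AMP, and CD73, encoded by Nt5e, converts AMP to adenosine.

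Counts assigned to genes were 20360121 to 23292655 per library, so that 1 CPM stands for over 20 counts and the floor of 3 counts, the limit that 0 counts allow, lies at 0.129 to 0.147 CPM. All 11 microglia markers reached 100 CPM in every library, with summed levels of 33599 to 59034 CPM. Replicates 2 and 3 stood apart from replicates 1 and 4 in several respects. Immediate early genes, a list of 18 stimulus-induced genes, took 0.538%, 5.89%, 5.16% and 0.561% of counts in replicates 1 to 4, and genes with any count numbered 14850, 18978, 18431 and 13944. Summed neutrophil markers went the other way, at 1522, 301, 288 and 2397 CPM, with 9 of 9 at 1 CPM or more in every library. All pairs of libraries differed far beyond counting error, with a chi-square of 51.7 to 414 per gene, lowest between replicates 2 and 3, so none was a copy of another.

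**Figure D1:**
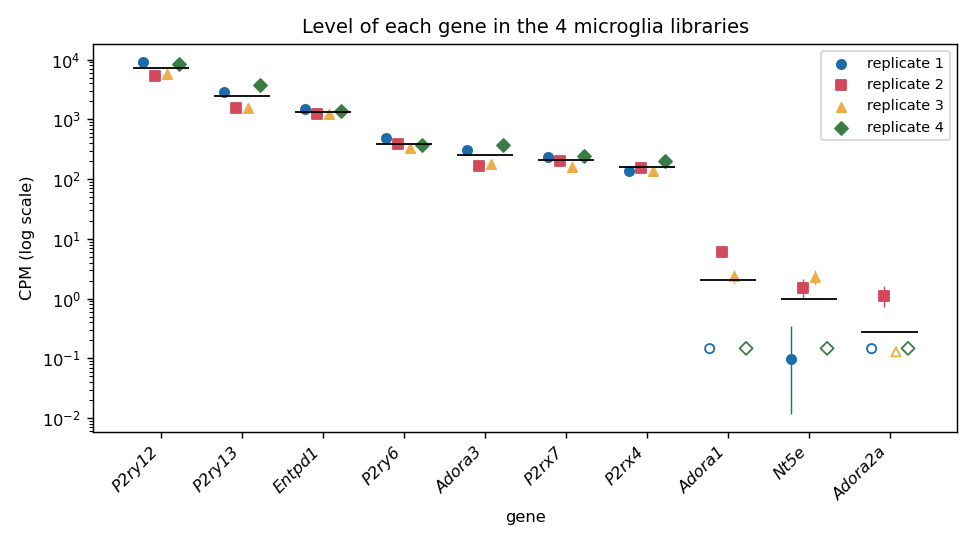
Level of each of the 10 genes in CPM, on a log axis, in each of the 4 libraries, with the mean as a black line and exact 95% counting intervals as vertical bars; open symbols are libraries with 0 counts, drawn at the floor of 3 counts. The 7 detected genes span 137 to 9213 CPM, and Adora1, Nt5e and Adora2a reach at most 5.98 CPM.

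The P2Y receptors for ADP were the most abundant of the set. P2ry12, the receptor of process extension and a marker that separates microglia from other macrophages, stood at 9213, 5392, 5748 and 8481 CPM in replicates 1 to 4. It was higher in replicates 1 and 4 than in replicates 2 and 3, and the highest library exceeded the lowest 1.71-fold. Its rank among all genes by CPM was 7, 17, 15 and 8, and by the mean per kb of exon it ranked 12 of 50613 genes with a length. The level is that of the sorted bulk, in which fewer expressing cells and less RNA per cell cannot be told apart. Platelets also carry P2Y12, and summed platelet markers were 48.4, 28.5, 25.3 and 27.1 CPM. Gp9 made up most of that sum, with 998, 642, 545 and 314 counts, Gp1ba had 0, 1, 4 and 238 counts, and Gp1bb and Gp6 had 0 counts in all libraries. The part of platelets in P2ry12 was not tested.

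P2ry13 encodes a second ADP receptor that, like P2Y12, couples to inhibitory G proteins. It gave 2878, 1535, 1574 and 3688 CPM in replicates 1 to 4, again higher in replicates 1 and 4, with a highest-to-lowest ratio of 2.40. Unlike P2ry12, it was highest in replicate 4. P2ry6, the receptor for UDP that is known for triggering phagocytosis in microglia, gave 480.4, 393, 335 and 365 CPM. Its order of libraries differed from that of the ADP receptors, because replicate 4 lay below replicate 2.

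Both detected P2X channels were lower. P2rx7, a channel that opens at high ATP and leads to inflammasome activation, gave 230.02, 197, 161 and 241 CPM in replicates 1 to 4. P2rx4, a more sensitive ATP channel that also sits in lysosomes, gave 137, 151, 138 and 200.5 CPM. P2rx4 was highest in replicate 4 and nearly level in the other libraries, with values of 137 to 151 CPM.

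Of the adenosine receptors, Adora3 was present in every library. It encodes the A3 receptor, which couples to inhibitory G proteins, and gave 303, 167, 182 and 378 CPM in replicates 1 to 4. The libraries ranked 4, 1, 3 and 2 from high to low, the same order as for P2ry13. Adora1, the inhibitory A1 receptor that is abundant on neurons, gave 0, 135, 55 and 0 counts, or 0, 5.98, 2.36 and 0 CPM. Adora2a, a stimulatory adenosine receptor of striatal neurons and of activated immune cells, gave 0, 25, 0 and 0 counts, or 1.11 CPM in replicate 2 (exact 95% interval 0.717 to 1.63).

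Of the ectonucleotidases, Entpd1 gave 1501, 1229, 1230.3 and 1392 CPM in replicates 1 to 4, and its highest library exceeded its lowest by a factor of 1.22. Nt5e gave 2, 34, 53 and 0 counts, or 0.0971, 1.51, 2.28 and 0 CPM. The transcript for the first surface enzyme of the ATP-to-adenosine route was thus among the 100 highest in every library, at ranks 62 to 91 by CPM, while that for the second was at or below the floor in replicates 1 and 4.

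Adora1, Adora2a and Nt5e had counts above the floor only in replicates 2 and 3. These are the libraries with the most detected genes, and several marker lists of other cells were highest there. Summed T and NK cell markers were 0.0485, 8.06, 8.89 and 0.0982 CPM in replicates 1 to 4, with no member of 9 at 1 CPM in every library. Summed border macrophage markers were 195, 631, 738 and 380 CPM, with 7 of 8 members at 1 CPM in every library. Not all of that list followed its sum. Cd163, at 16.2, 22.2, 24.3 and 32.6 CPM, and Ms4a7, at 50.6, 58.7, 71.4 and 83.5 CPM, were highest in replicate 4. Oligodendrocyte markers summed to 486, 1789, 1819 and 587 CPM, with 7 of 7 at that level. Neuron markers, summing to 16.6, 16.7, 36.9 and 21.4 CPM, did not follow the same order, and most of that sum was Camk2a, with 254, 155, 385 and 433 counts. Other neuron markers did have more counts in replicates 2 and 3, with 1, 167, 325 and 2 for Snap25, 0, 28, 14 and 0 for Syt1 and 0, 19, 58 and 1 for Rbfox3. Of the striatal markers, Penk had 88, 8, 67 and 0 counts and Drd1 and Drd2 had 0 in all libraries. The part of these cells in the counts of Adora1, Adora2a and Nt5e was not tested.

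Counts of overlapping genes were checked in a GENCODE annotation of GRCm38, an older build than that of the counts. P2ry12 and P2ry13 lie inside the span of Med12l, a Mediator subunit gene on the opposite strand. Exons of Med12l cover 9 bases of the 2546 exon bases of P2ry12 and none of P2ry13. Med12l gave 30.3, 27.3, 24.7 and 1.92 CPM, and it was lowest in replicate 4, where P2ry13 was highest. Adora3 shares 20.9% of its exon bases with Tmigd3 on the same strand, and Tmigd3 had 0, 9, 0 and 0 counts. Adora1 shares 20.1% of its exon bases with Mybph on the opposite strand, and Mybph had 0, 26, 20 and 7 counts. Reads in shared bases may have been left out of either gene, so levels of Adora3 and Adora1 are uncertain to that extent.

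Levels of different genes can be compared only per length, so the order of the set was taken from counts per kb of annotated exon within each library. From high to low it was P2ry12, P2ry13, Entpd1, P2ry6, Adora3, P2rx7 and P2rx4, with means of 2831 ± 754, 957 ± 416, 240 ± 23.8, 136 ± 21.7, 69.1 ± 26.9, 34.7 ± 6.02 and 22.3 ± 4.25 CPM per kb (SD, n = 4). All 21 pairs among these 7 genes kept 1 order in 4 of 4 libraries. For each pair, flipping signs over the 4 libraries in an exact two-sided permutation test gave p = 0.12, with an adjusted p = 0.134 over the 45 pairs of the set, and no smaller p can be had from 4 libraries. Among neighbours in the order, the mean log2 ratio per kb was 1.63 ± 0.30 for P2ry12 over P2ry13, 1.90 ± 0.52 for P2ry13 over Entpd1, 0.82 ± 0.15 for Entpd1 over P2ry6, 1.05 ± 0.54 for P2ry6 over Adora3, 0.93 ± 0.38 for Adora3 over P2rx7 and 0.64 ± 0.24 for P2rx7 over P2rx4 (SD, n = 4).

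The order of 4 of these neighbours depended on the length used. With the median length of coding transcripts, P2ry13 over Entpd1 fell to 0.14 on the log2 scale with P2ry13 higher in 2 of 4 libraries, and P2rx7 over P2rx4 fell to 0.10, with P2rx7 higher in 2 of 4. Adora3 over P2rx7 was then 0.29, with Adora3 higher in 3 of 4, and P2ry6 over Adora3 was 0.56, with P2ry6 higher in 3 of 4. The exon union was 7025 bases for P2rx4 and 5970 for P2rx7, against medians of 1499 and 1848 bases for their coding transcripts, and which transcripts were present was not measured. The places of P2ry12 at the top and of P2ry6 below Entpd1 held in 4 of 4 libraries with each length used, with Entpd1 over P2ry6 at 0.66 to 2.02. The 3 pairs among Adora1, Adora2a and Nt5e had no order, because in 2 libraries both genes were at 3 counts or fewer.

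**Figure D2:**
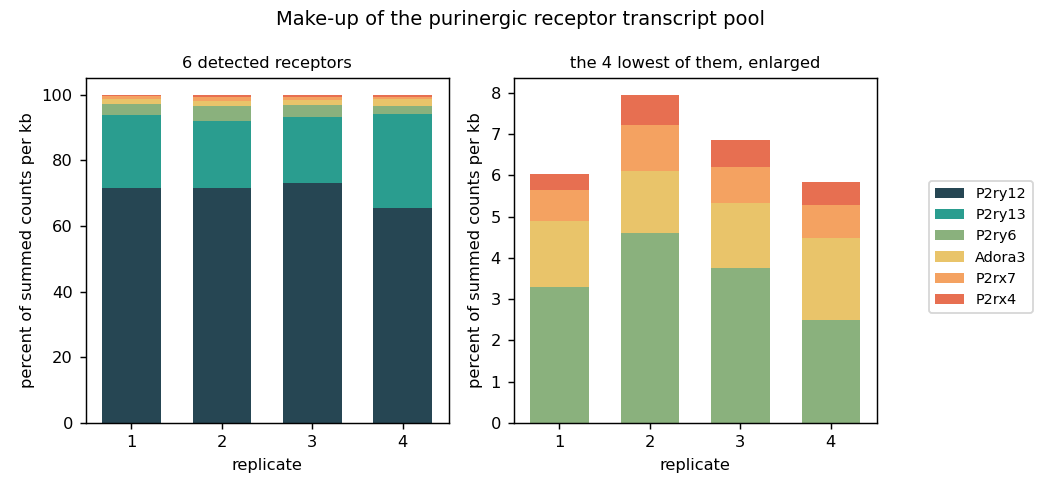
Make-up of the summed counts per kb of exon of the receptor genes in each library, in percent, as stacked bars by gene; the right panel enlarges the 4 lowest of the 6 detected receptors. P2ry12 takes 65.5% to 73.0% of the bar in every library, and P2ry13 reaches 28.7% in replicate 4.

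As a share of the pool of all 8 receptor genes, per kb of exon, P2ry12 took 71.5%, 71.5%, 73.0% and 65.5% in replicates 1 to 4. P2ry13 took 22.5%, 20.5%, 20.1% and 28.7%, so that the lower share of P2ry12 in replicate 4 was met by a higher share of P2ry13. The 3 P2Y receptors together took 96.8% ± 0.297, the P2X channels 1.46% ± 0.293 and the adenosine receptors 1.69% ± 0.203 (SD, n = 4). The P2X share was 1.15%, 1.84%, 1.51% and 1.35% in replicates 1 to 4, highest in replicate 2. These shares do not depend on the library total. Without length correction, the P2X share was 3.55% and the adenosine share 2.40%, and P2Y receptors still took 94.0%.

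**Figure D3:**
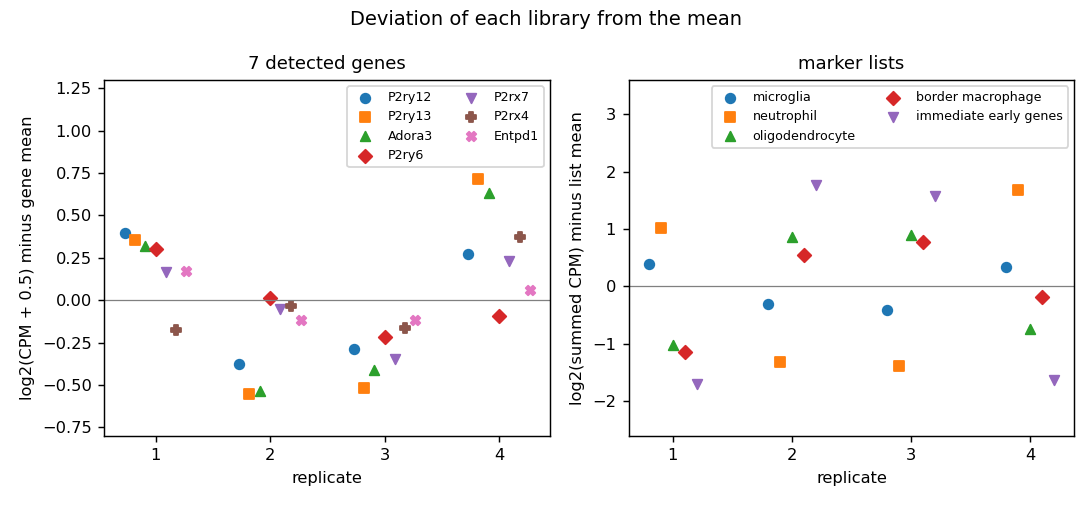
Deviation of each library from the mean over the 4 libraries, on a log2 scale, for the 7 detected genes (left, log2(CPM + 0.5)) and for summed marker lists (right, log2 of summed CPM). P2ry12, P2ry13 and Adora3 lie above their mean in replicates 1 and 4, as do the microglia and neutrophil lists, while immediate early genes lie below it there.

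The members differed in how they moved across libraries. P2ry13 and Adora3 had the most similar pattern over the 4 libraries, a pair picked as the closest of 21. How many other genes come as close to either was not counted. Their log2 ratio per kb was 3.81, 3.76, 3.67 and 3.85 in replicates 1 to 4, and its SD of 0.08 was the smallest of the 21 pairs, whose SDs reached 0.59 for P2ry13 over P2ry6. Of the 7 detected genes, P2ry12, P2ry13, P2rx7, Adora3 and Entpd1 were higher in both replicates 1 and 4 than in replicates 2 and 3. P2ry6 and P2rx4 did not follow this order. Immediate early genes were low and neutrophil markers high in replicates 1 and 4, as given above, and summed microglia markers were 59034, 36139, 33599 and 56420 CPM. The part of these in the levels of P2ry12, P2ry13 and Adora3 was not tested. B cell markers summed to 86.1, 22.3, 26.9 and 62.0 CPM, also higher in replicates 1 and 4, with Cd79b at 79.8, 18.3, 23.4 and 50.8 CPM and Ms4a1 at 0 counts in all libraries. In replicate 4, where P2ry13 and Adora3 were highest, the sums of 3 further lists were highest too. Monocyte markers reached 188 CPM there against 76.5 to 122 CPM, of which Chil3 was 124 CPM, while Ccr2 had 1 count there against 335 to 595 and Fn1 had 0. Markers of choroid plexus and ependyma reached 2050 CPM against 442 to 902 CPM, of which Ttr was 2008 CPM, while Kl had 1 count. Mural and fibroblast markers reached 135 CPM against 39.02 to 110.02 CPM, carried by Rgs5 and Vtn, while Col1a1 had 0 counts. The part of these cells was not tested either. Endothelial markers summed to 77.0 to 138 CPM and astrocyte markers to 240.1 to 504 CPM.

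P2ry13 and Adora3 are both on chromosome 3, at separate places. The sequence around the start of each is shown because this pair was picked as the closest of 21 in pattern. A link between sequence and level was not tested. Each window runs from 250 bases before to 50 after the start in RefSeq, build GRCm38.p6, from chr3:59210833-59211132 on the minus strand for P2ry13 and chr3:105904171-105904470 on the plus strand for Adora3. Capitals mark matches on either strand to GAGGAAG, a core that the macrophage lineage factor PU.1 can bind, and to TGANTCA. The latter is a loose form of the site of AP-1 factors, with any base allowed at N.
P2ry13: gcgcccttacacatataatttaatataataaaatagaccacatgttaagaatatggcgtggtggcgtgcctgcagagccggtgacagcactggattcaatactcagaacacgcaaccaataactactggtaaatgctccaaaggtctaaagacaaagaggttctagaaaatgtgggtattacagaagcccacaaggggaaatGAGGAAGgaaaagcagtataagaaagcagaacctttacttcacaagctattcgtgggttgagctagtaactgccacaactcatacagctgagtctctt
Adora3: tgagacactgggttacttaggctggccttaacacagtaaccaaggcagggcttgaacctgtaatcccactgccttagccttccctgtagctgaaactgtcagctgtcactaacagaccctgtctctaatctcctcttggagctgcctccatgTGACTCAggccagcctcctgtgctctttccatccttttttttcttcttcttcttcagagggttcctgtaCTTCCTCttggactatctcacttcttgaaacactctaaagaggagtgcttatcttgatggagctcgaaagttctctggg
The P2ry13 window holds GAGGAAG from 48 bases before the start. The Adora3 window holds its reverse complement from 29 bases before the start and TGANTCA from 98 bases before it. In both windows the last 50 bases open an annotated GENCODE transcript.

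Promoter windows were matched for 8 of the 10 genes, 11 windows in all, and P2ry6 and Adora2a were not matched. GAGGAAG was in 4 of the 11 windows, of P2ry13, P2rx7, Adora3 and Entpd1, and in 13.6% of all 32851 mouse promoter windows of the same length. TGANTCA was in 3 of the 11, of P2rx7, Adora1 and Adora3, and in 7.81% of all. The match read TGAGTCA for P2rx7, TGAATCA for Adora1 and TGACTCA for Adora3. The window matched for P2ry12 held neither motif, and its last 50 bases open no GENCODE transcript of that gene. The last 50 bases of the windows of P2rx7, Adora1 and Nt5e likewise open no GENCODE transcript of their genes. A match describes letters only, and binding was not measured.

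**Figure D4:**
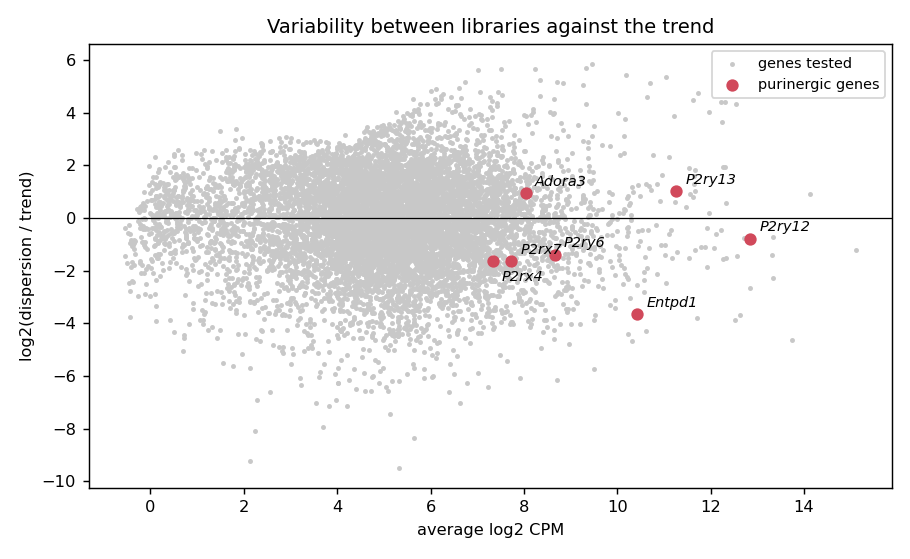
Quasi-dispersion of each of 9075 genes between the 4 libraries relative to the trend at its abundance (log2, vertical axis) against its average log2 CPM (horizontal axis), with the 7 detected purinergic genes in red and the trend at 0. P2ry13 and Adora3 lie above the trend and Entpd1 lies 3.66 below it.

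The test of variability asks which genes differed between libraries more than other genes of like abundance. None of the 7 tested members passed it, against 0 of 9075 genes tested (0%) at an adjusted p of 0.05 in edgeR's quasi-likelihood fit. Without adjustment 0 of the 7 members and 390 of all genes tested, 4.3%, had p under 0.05, and DESeq2 named 0 genes as dispersion outliers. The dispersion of P2ry13 was 2.03 times the trend (edgeR, adjusted p = 0.949) and that of Adora3 was 1.94 times (edgeR, adjusted p = 0.95). P2ry12 stood at 0.584, P2ry6 at 0.383, P2rx7 at 0.322, P2rx4 at 0.321 and Entpd1 at 0.0792 times the trend. P2ry12 lay above the trend, at 1.59 times it, when no filter on low counts was used. The median log2 ratio to the trend was -1.39 over the 7 members and -0.08 over all genes tested. Counts for the 9075 genes were also simulated, with the dispersion of every gene set to the trend. There the same test called 0% of genes changed 4-fold and 44% of genes changed 16-fold between 2 libraries and the other 2. Differences of the size found in the members could thus not be detected by this test. In the data, Fos, at 372, 6281, 5916 and 310 CPM in replicates 1 to 4, was not called. Its dispersion was 27.1 times the trend (edgeR, adjusted p = 0.944), so the simulated 44% need not hold here.

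Entpd1 was the steadiest member by range as well as by dispersion. Among 1692 genes with a mean of 100 CPM or more, 5.26% had a smaller range between libraries than Entpd1 on the log2(CPM + 0.5) scale. The share was 21.7% for P2ry6, 24.2% for P2rx4, 26.9% for P2rx7, 45.2% for P2ry12, 72.2% for Adora3 and 76.5% for P2ry13. The genes nearest to P2ry12 in pattern were Golm1, Slc2a5, Ifngr1, Cd37 and Tram1, with root mean square differences of 0.0245, 0.0383, 0.0398, 0.0479 and 0.0481 in centred log2 level over the 4 libraries. Slc2a5, a fructose transporter gene of microglia, gave 1180, 664, 718 and 1010 CPM in replicates 1 to 4. By the same measure P2ry13 ranked 465 of 1691 genes from P2ry12, at a difference of 0.263, although the loci of both lie within Med12l. P2ry13 and Adora3 differed by 0.0674, more than each of the 5 genes nearest to P2ry12 differed from it. The genes nearest to Entpd1 were Naca, Leprotl1, Naa12, Nr3c1 and Ly6e, at 0.0395 to 0.0435.

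**Figure D5:**
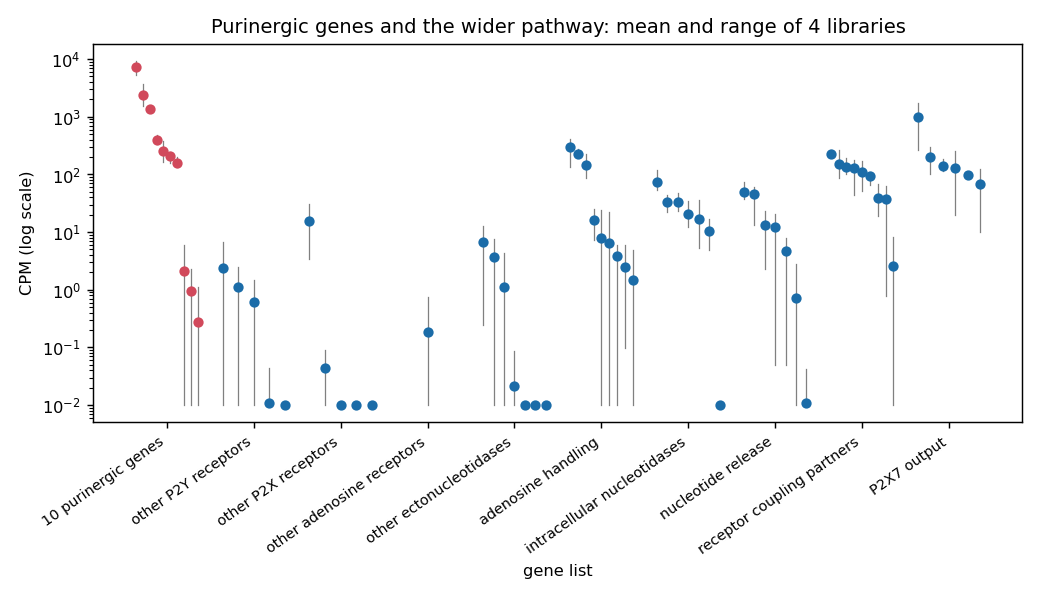
Mean level in CPM of the 10 purinergic genes (red) and of the genes of 9 further lists (blue), on a log axis, with grey lines from the lowest to the highest library and values under 0.01 CPM drawn at 0.01. Other receptors and ectonucleotidases have means of at most 15.7 CPM, while adenosine handling, coupling and P2X7 output genes reach 100 CPM and more.

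The remaining receptor genes of the 3 families were low. The counts of genes at 1 CPM that follow stand beside a share of 14.8% among all gene rows. Of 5 other P2Y receptor genes, 0 reached 1 CPM in every library, and their summed level was 0 to 10.4 CPM. Of 5 other P2X genes, 1 reached 1 CPM in every library, P2rx1, which encodes a channel of platelets and neutrophils, at 3.37 to 30.7 CPM, and P2rx2, P2rx3 and P2rx5 had 0 counts in all libraries. Adora2b, the low-affinity adenosine receptor, had 0, 17, 0 and 0 counts. Of 7 other ectonucleotidase genes, 0 reached 1 CPM in every library, with sums of 0.295 to 20.05 CPM. Among the receptor families, levels of 100 CPM or more in every library were thus found for 6 genes, P2ry12, P2ry13, P2ry6, P2rx4, P2rx7 and Adora3.

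Of 9 genes that take up or remove adenosine and related nucleosides, 4 reached 1 CPM in every library, against 14.8% of all gene rows. Slc29a1, the plasma membrane nucleoside transporter ENT1, gave 271, 202, 212 and 213 CPM in replicates 1 to 4, highest in replicate 1. Slc29a3, a lysosomal nucleoside transporter, gave 372, 420, 285 and 137 CPM, lowest in replicate 4. Pnp, which splits inosine and guanosine, gave 169, 86.0, 111 and 225 CPM and was higher in replicates 1 and 4. Adenosine kinase, Adk, gave 7.42 to 24.9 CPM and adenosine deaminase, Ada, 0.0982 to 6.02 CPM, both chosen after their values were seen. Ahcy and Slc29a2 had 0 counts in replicate 4 and Slc28a2 in replicates 1 and 4. In the list of 7 intracellular nucleotidases 6 reached 1 CPM in every library, with Nt5c2, a cytosolic IMP and GMP phosphatase, at 73.2 ± 29.9 CPM (SD, n = 4), and in the list of 7 nucleotide release genes 3 did. Entpd4 had 0 counts in all libraries, and reads of genes with near-identical copies may have been dropped.

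Of 9 genes that couple the receptors to responses, 7 reached 10 CPM in every library, against 10.1% of all gene rows. Among the G protein alpha subunits that P2Y12 and P2Y13 use, Gnai2 gave 192, 104, 147 and 102 CPM and Gnai3 gave 87.7, 146, 105 and 264 CPM in replicates 1 to 4, in different orders of libraries. Gnaq, the subunit that P2Y6 uses, stood at 95.2 ± 19.96 CPM and Gnas, the stimulatory subunit, at 132 ± 61.2 CPM (SD, n = 4). Pik3cg, the phosphoinositide kinase activated by G protein beta-gamma subunits, stood at 225 ± 29.3 CPM. Kcnk13 encodes THIK-1, a potassium channel whose activity supports microglial surveillance and inflammasome activation, and it gave 123, 87.3, 52.4 and 171 CPM, higher in replicates 1 and 4.

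All 6 genes of the P2X7 output list reached 10 CPM in every library, and 3 reached 100 CPM, against 10.1% and 2.01% of all gene rows. The cytokine gene Il1a gave 265, 1761, 1627 and 275 CPM in replicates 1 to 4, and Il1b gave 10.2, 116, 123 and 23.2 CPM. The inflammasome sensor gene Nlrp3 gave 77.2, 255, 158 and 20.04 CPM. These 3 genes were higher in replicates 2 and 3, the libraries with the most immediate early transcripts, and the part of that response was not tested. The adaptor gene Pycard gave 254, 104, 135 and 298 CPM and was higher in replicates 1 and 4. Casp1, the protease that matures interleukin-1 beta, stood at 96.4 ± 9.87 CPM and Gsdmd, the pore protein it cuts, at 142 ± 28.9 CPM (SD, n = 4). P2rx7 itself, at 161 to 241 CPM, did not follow Il1b. None of the 6 passed the variability test, and their median log2 ratio to the trend was 2.59, against -0.08 over all genes tested.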

How the data were processed

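Naive microglia were profiled in 4 RNA sequencing libraries made with a low-input kit from sorted cells, per the labels' protocols. The authors deposited raw counts per gene symbol, 1 file per library. Build GRCm39, STAR 2.7.10a, HTSeq 0.11.2 and SAMtools 1.16.1 are named, per the submitters' processing notes. For the annotation and strand setting, the sources used here say nothing. The 5 closing rows that name no gene, 20.8% ± 1.28 (SD, n = 4) of listed reads, were left out of totals.

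Levels are CPM. Lengths were exon unions from a GENCODE annotation of GRCm38, matched for 89.1% of gene rows. Exact 95% Clopper-Pearson intervals and the floor of 3 counts cover counting error only, because PCR copies were not marked by molecular identifiers. Pairs were tested on log2((count + 0.5) per kb) by an exact sign-flip permutation test with Benjamini-Hochberg adjustment. Variability was tested with edgeR 4.0.16 in R 4.3.3 (filterByExpr with a minimum count of 10, TMM, intercept-only quasi-likelihood fit, upper-tail F test, Benjamini-Hochberg over 9075 genes) and tested on simulated data. Alternatives used DESeq2 1.42.0 size factors and dispersion outliers, other lengths, pseudocount 5, no filter, other CPM scalings and each library left out. Named genes were all 10 members, the 16 pathway genes with a mean of 50 CPM or more, and the 5 genes nearest in pattern to P2ry12 and to Entpd1 among those at 100 CPM or more. Members and lists were chosen with earlier results of these data known, and the promoter motifs and the genes marked so after values were seen. Other steps ran in Python 3.11.15 with pandas 2.3.3, numpy 2.4.6 and scipy 1.17.1, and plots were drawn with matplotlib 3.10.9.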

Additional observations from a re-analysis of the deposited data

Results flagged for a closer look

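Of 43 values checked for 1 library far from the other 3, 4 were flagged, because the gap to the nearest library, as a part of the whole range, exceeded Dixon's 95% critical value, which chance gives in about 1 of 20 groups of this size. Adora2a stood at 1.11 CPM in replicate 2, or 0.0122% of the receptor pool, with 0 counts in the other libraries. The adenosine receptors took 1.99% of the receptor pool in replicate 4, against 1.56% to 1.60% in the other libraries. Slc29a1 stood at 271 CPM in replicate 1, against 202 to 213 CPM in the others.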

How the results depend on the processing

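The mean CPM of each of the 10 genes moved by less than 1 SD under TMM scaling, DESeq2 size factors and totals without immediate early and mitochondrially encoded genes. For Adora1, Adora2a and Nt5e the SDs of 2.82, 0.554 and 1.11 CPM exceeded the means of 2.09, 0.277 and 0.970 CPM. These scalings could not pass so wide a limit, so the check is not informative for those genes. The 42 pairs with 1 order in every library were 40 without length correction, 41 with the longest transcript, 37 with the median coding transcript and 42 with a pseudocount of 5; leaving out a library cannot lower this count. Relative to the level, counting error was small for the 7 genes at 100 CPM or more and larger for the 3 others, whose counts were 135 or fewer. For Adora1 the exact 95% intervals were still apart, at 0 to 0.179 CPM in replicate 1 and 5.01 to 7.08 CPM in replicate 2. The receptor pool moved with the length used. Without length correction the P2Y, P2X and adenosine shares were 94.0%, 3.55% and 2.40%, and with the longest transcript they were 95.6%, 1.93% and 2.42%. The median coding transcript was not used for the shares, so their range over lengths may be wider. With each library left out the shares ranged from 96.7% to 96.9%, 1.34% to 1.57% and 1.59% to 1.73%. Among neighbours, P2rx7 over P2rx4 was 0.06 on the log2 scale with the longest transcript. The variability test named 0 genes under every setting run, with 380 to 483 genes at an unadjusted p under 0.05 in edgeR. Over its settings, the adjusted p of P2ry13 ranged from 0.826 to 0.994. The levels of Adora1, Adora2a and Nt5e rest on replicates 2 and 3, and with each library left out their means ranged from 0.787 to 2.78, from 0 to 0.369 and from 0.534 to 1.29 CPM, with Adora2a at 0 without replicate 2. With each library left out, the dispersion relative to the trend ranged from 0.328 to 0.908 for P2ry12, 1.53 to 2.57 for P2ry13, 0.17 to 0.522 for P2ry6, 0.132 to 0.333 for P2rx4, 0.0348 (without replicate 3) to 0.532 for P2rx7, 1.26 to 2.61 for Adora3 and 0.00132 to 0.127 for Entpd1. No paired analysis was possible because the libraries form 1 group.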

Other observations

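Outside the 10 genes, a few purine genes differed widely between libraries and are given as values, chosen after they were seen. P2rx1, the ATP channel of platelets and neutrophils, gave 21.8, 3.37, 6.96 and 30.7 CPM in replicates 1 to 4, the same order of libraries as the summed neutrophil markers apart from replicates 2 and 3. Of the platelet genes, Gp9 had 998, 642, 545 and 314 counts, Gp1ba had 0, 1, 4 and 238, and Gp1bb and Gp6 had 0 in all libraries. The part of neutrophils and of platelets in the counts of P2rx1 was not tested.

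Alpl, a phosphatase that can also convert AMP to adenosine, gave 0, 173, 171 and 1 counts in replicates 1 to 4, and Enpp1, which cuts ATP to AMP, gave 54, 270, 294 and 5 counts. Both were highest in replicates 2 and 3, where Nt5e was above the floor. P2ry14, the UDP-glucose receptor next to P2ry13, gave 0, 155, 57 and 1 counts, while Gpr171 in the same cluster gave 0, 89, 56 and 1. Dpp4, which binds adenosine deaminase in humans, gave 0, 0.974, 2.53 and 22.2 CPM, highest in replicate 4.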
